A study of Homo sapiens with 3 samples.

Results

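The extracellular matrix genes of collagens, laminins and matrix glycoproteins were followed across 2 neuroblastoma cell lines and a reference pool. They were chosen by name, as a list of 47 genes, and measured with the probe sets that name 1 gene alone. Such probe sets represent 45 of the 47 genes, with 135 probe sets, among 19775 genes and 41091 probe sets of the arrays. COL17A1 and LAMA3 have none in the annotation used and were not analysed here. The samples were untreated NGP cells, untreated IMR-32 cells and an untreated mRNA pool made from 16 cancer lines, and each sample was hybridised to 1 Affymetrix U133 Plus 2.0 array. NGP and IMR-32 are established human neuroblastoma lines, both with amplified MYCN. They were grown in different media, NGP in an RPMI medium and IMR-32 in Minimum Essential Medium, both with fetal bovine serum. The medium therefore cannot be told apart from the line. The lines that make up the pool are not given in the sources used here.

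The matrix outside cells is of 2 main kinds. Interstitial matrix holds fibrils of collagens I, II, III, V and XI with fibronectin, tenascin and small proteoglycans, and is made mostly by fibroblasts and other mesenchymal cells. Basement membranes are thin sheets of collagen IV and laminin networks, joined by nidogens and by the heparan sulfate proteoglycans perlecan and agrin, and lie against epithelia, nerves, muscle and vessels. In neuroblastoma tumours much of the matrix belongs to the Schwannian and fibroblast stroma, which a cell line grown alone does not have.

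Values are MAS5 signals on a linear scale, and expression ratios are log2 ratios of 2 arrays, and a gene with several probe sets takes their median. A gene was called higher or lower when its ratio lay within the top or bottom 7% of all genes in that comparison. In NGP over the pool these cut-offs were 1.84 (3.59-fold) and -2.88 (7.37-fold lower), in IMR-32 over the pool 1.68 (3.21-fold) and -2.83 (7.12-fold lower), and in NGP over IMR-32 1.95 and -1.84. A signal below the median of its array (98.8 in NGP, 89.9 in IMR-32 and 119 in the pool) is called dim here, and the size of a ratio that rests on a dim signal is not firm. With 1 array per sample there is no replicate check and no p-value, and the number of arrays limits the precision. The standard deviation between probe sets of the same gene was 1.41 for NGP over the pool, 1.32 for IMR-32 over the pool and 1.28 for NGP over IMR-32, over 10523 genes with several probe sets.

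More matrix genes were called lower than higher over the pool in each neuroblastoma line. In NGP, 11 of the 45 measured genes were called lower (24.4%) and 2 were called higher (4.44%), while by construction 7% of all genes are called in each direction. In IMR-32, 12 were called lower (26.7%) and 2 higher (4.44%), against the same 7% of all genes in each direction. The median log2 ratio of the matrix genes was -1.16 in NGP and -1.46 in IMR-32, beside medians of -0.22 and -0.23 over all genes. With dim signals raised to the array median, the matrix genes were at -0.53 in NGP and -0.66 in IMR-32, and all genes at -0.27 and -0.41. Of the 45 genes, 37 were below 0 in NGP (82.2%, against 57.7% of all genes) and 39 in IMR-32 (86.7%, against 58.4%). The 2 comparisons share the pool array, so that they are not independent of each other. Called lower in both lines were 7 genes (15.6%, against 3.41% of all genes), COL1A2, COL2A1, COL5A2, COL9A3, COL12A1, COL6A3 and LAMB3. VCAN alone was called higher in both (2.22%, against 3.20% of all genes). Of these 7, COL2A1 and COL5A2 were called lower in both lines under all 10 processing alternatives. No matrix gene was called higher in 1 line and lower in the other. Such opposite calls were rare over all genes as well, at 0.06% (higher in NGP) and 0.12% (higher in IMR-32).

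The pool gave a signal at or above its array median for nearly every matrix gene. At least 1 probe set reached the array median for 32 of the 45 genes in NGP (71.1%), for 26 in IMR-32 (57.8%) and for 42 in the pool (93.3%), while the shares over all genes were 61.2%, 61.7% and 66.4%. These shares are not fully alike, since a gene with more probe sets reaches the median more easily. The 45 matrix genes have 135 probe sets, and all 19775 genes have 41091. In 8 genes the median was reached in the pool alone, namely COL1A2, COL2A1, COL9A3, COL4A5, COL6A3, COL8A1, LAMB3 and THBS2. A further 9 genes reached it in NGP and the pool, and 4 genes (COL5A1, LAMA5, NID1 and TNC) in IMR-32 and the pool. POSTN, the gene of periostin, reached it on no array, and its ratios are not read further.

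**Figure D1:**
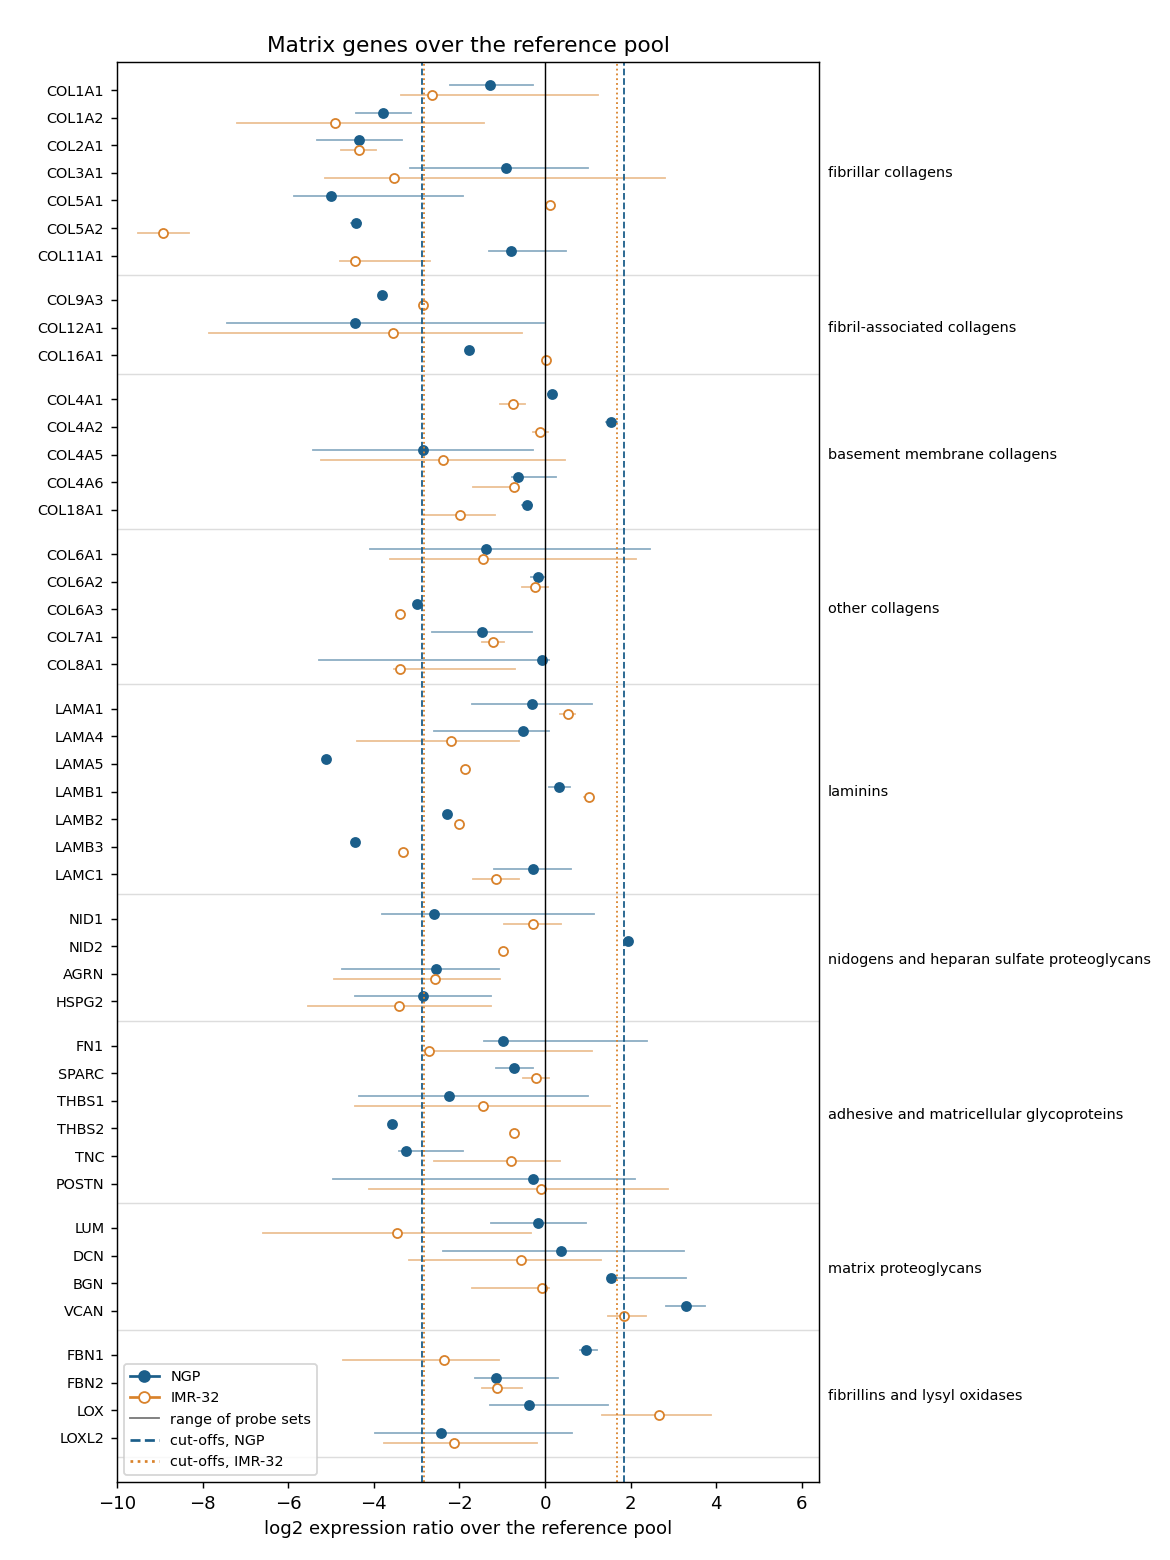
Log2 expression ratio over the reference pool (x-axis) of each measured matrix gene (rows, grouped by role) in NGP (filled circles) and IMR-32 (open circles), with thin lines for the range of the probe sets of a gene and vertical lines for the cut-offs of each line. Most circles lie left of 0, VCAN lies right of the upper cut-off in both lines, and COL5A1 and COL5A2 differ in which line is lower.

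The 7 fibrillar collagens on the list, of the kind that forms the rods of tendon, skin and cartilage, were mostly far below the pool. In NGP 4 of 7 were called lower, with a median log2 ratio of -3.80, and in IMR-32 5 of 7, with a median of -4.36. By construction 7% of all genes are called lower, and the medians over all genes were -0.22 and -0.23. COL1A2, the second chain of collagen I, had signals of 60.2 in NGP, 42.5 in IMR-32 and 1280 in the pool with its brightest probe set, and was at -3.80 in NGP and -4.91 in IMR-32. All of its probe sets were dim in both lines. Its partner chain COL1A1 was not called in either line (-1.29 in NGP and -2.63 in IMR-32), and its brightest probe set gave 4327 in NGP, 820 in IMR-32 and 8465 in the pool. In IMR-32 the probe sets of the 2 chains overlapped, from -3.37 to 1.24 for COL1A1 and from -7.19 to -1.43 for COL1A2. COL2A1, the cartilage collagen, had signals of 70.8 in NGP, 26.3 in IMR-32 and 715 in the pool, with ratios of -4.34 and -4.36.

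Collagen V, which sits inside collagen I fibrils and sets their width, had chains that differed between the lines. COL5A1 had signals of 12.2 to 87.4 over its 3 probe sets in NGP, 360 to 777 in IMR-32 and 332 to 710 in the pool. NGP was thus dim with every probe set, and IMR-32 lay beside the pool. The ratio was -5.01 in NGP (32.2-fold lower) and 0.12 in IMR-32. In NGP the size depends on the probe set and on dim signals. The COL5A1 probe set that ranks brightest by mean log2 signal gave -1.93 alone, which did not pass (cut-off -3.06). It was the brightest of the 3 in NGP but the dimmest in IMR-32 and in the pool. The other probe sets gave -5.01 and -5.86 in NGP. Raising dim signals to the array median gave -2.05. COL5A2, the other chain, had signals of 81.5 and 113 in NGP, 4.99 and 3.53 in IMR-32 and 1602 and 2591 in the pool, so that both lines were far below the pool and IMR-32 the lower of them. Over the pool NGP was at -4.41 and IMR-32 at -8.92, the lowest of any matrix gene measured, and -4.27 and -4.50 when dim signals were raised to the array median. The sequence before the COL5A1 start site is shown because COL5A1 had the lowest ratio of NGP over IMR-32 among the matrix genes. It is read from the RefSeq tables at chr9:134641553-134641802 of GRCh38.p14, plus strand, with GC boxes (GGGCGG on either strand) in capitals.
COL5A1: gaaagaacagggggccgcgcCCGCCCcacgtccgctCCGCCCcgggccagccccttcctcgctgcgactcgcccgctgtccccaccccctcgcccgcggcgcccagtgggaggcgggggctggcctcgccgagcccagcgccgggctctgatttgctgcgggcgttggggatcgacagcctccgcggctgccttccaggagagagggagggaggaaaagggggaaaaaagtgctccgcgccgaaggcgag

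COL3A1 and COL11A1 were called lower in IMR-32 only, and NGP was called higher than IMR-32 for both. COL3A1, the collagen of vessels and reticular fibres, had signals of 259 in NGP, 11.4 in IMR-32 and 391 in the pool with its brightest probe set, at -0.92 for NGP and -3.53 for IMR-32 over the pool. Its 5 probe sets did not all run the same way, from -5.15 to 2.81 in IMR-32, and the 2 with the highest ratios there were dim on all arrays. COL11A1, a minor chain of cartilage fibrils, had 271 in NGP, 31.1 in IMR-32 and 678 in the pool. The COL11A1 ratios were -0.80 in NGP and -4.45 in IMR-32, and all 3 of its probe sets were higher in NGP than in IMR-32, by 3.13 to 3.99.

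Of the collagens that coat fibrils, COL9A3 and COL12A1 were called lower in both lines and COL16A1 in neither. COL9A3, a chain of collagen IX on cartilage fibrils, had signals of 16.1 in NGP, 31.2 in IMR-32 and 224 in the pool from 1 probe set, with ratios of -3.80 and -2.85, the IMR-32 value just past the cut-off. COL12A1, of dense connective tissue, stood at -4.43 in NGP and -3.55 in IMR-32. Its probe sets disagreed, since the brightest gave 184 in NGP, 129 in IMR-32 and 188 in the pool, a ratio of -0.03 in NGP, while another gave 8.87 in NGP, 20.6 in IMR-32 and 1529 in the pool. COL16A1 had signals of 105 in NGP, 365 in IMR-32 and 361 in the pool.

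Of the basement membrane collagens 0 of 5 were called in either line, although the 1 COL4A5 probe set that was not dim in the pool was far below it. COL4A1 and COL4A2, the chains of the collagen IV network of nearly all basement membranes, were bright on all 3 arrays. COL4A1 had signals of 2227 in NGP, 1019 in IMR-32 and 2108 in the pool, and ratios of 0.17 and -0.76. COL4A2 had 7298 in NGP, 2233 in IMR-32 and 2720 in the pool, with ratios of 1.55 (2.93-fold, below the cut-off) and -0.11. Both probe sets of each gene were higher in NGP than in IMR-32, by 0.73 and 1.13 for COL4A1 and by 1.61 and 1.71 for COL4A2, and neither gene was called in that comparison. These genes lie head to head and share the bases between their start sites, which are shown for that reason. The 126 bases are chr13:110307158-110307283 of GRCh38.p14, given on the plus strand, so that COL4A2 is transcribed to the right of them and COL4A1 to the left on the minus strand. Capitals mark a CCAAT box (CCAAT on either strand) and a GC box.
COL4A1 and COL4A2: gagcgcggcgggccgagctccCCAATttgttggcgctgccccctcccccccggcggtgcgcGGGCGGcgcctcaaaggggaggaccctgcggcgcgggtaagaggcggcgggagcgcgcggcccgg

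The other basement membrane collagens were not called either. COL4A5, which replaces these chains in specialised basement membranes such as that of the kidney, had signals of 31.3 in NGP, 35.6 in IMR-32 and 1338 in the pool with its brightest probe set. Its other probe set was dim on all 3 arrays, so that the gene values (-2.85 in NGP and -2.38 in IMR-32) did not pass the cut-offs, although the brightest alone gave -5.42 and -5.23. COL4A6, which lies head to head with it, had 127 in NGP, 61.9 in IMR-32 and 198 in the pool and was not called. COL18A1, whose C-terminal end is endostatin, had 373 in NGP, 75.4 in IMR-32 and 537 in the pool, with ratios of -0.42 and -2.0.

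Among the remaining collagens COL6A3 was called lower in both lines and COL8A1 in IMR-32. In NGP the COL6A3 value is close to the cut-off of -2.88, and its call was lost with dim probe sets left out, with the brightest probe set of each gene and with 5% called. Collagen VI forms beaded filaments around cells from 3 chains. COL6A3 had signals of 85.8 in NGP, 64.4 in IMR-32 and 679 in the pool, with ratios of -2.98 and -3.40. The other chains were nearer to the pool, with COL6A2 at 581 in NGP, 499 in IMR-32 and 725 in the pool, and COL6A1 at 2048 in NGP, 1034 in IMR-32 and 3184 in the pool by its brightest of 8 probe sets. COL8A1, a short-chain collagen of vessel walls and cornea, reached the array median with only 1 probe set and only in the pool (9.45 in NGP, 32 in IMR-32 and 368 in the pool). Its call in IMR-32 (-3.39) comes from another probe set that was dim on all 3 arrays. COL7A1, the anchoring fibril collagen of skin, was at -1.46 in NGP and -1.22 in IMR-32.

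Laminins divided by chain. Each laminin is a cross of an alpha, a beta and a gamma chain. LAMB1 and LAMC1, the beta and gamma chains of the widespread laminins, were bright on all arrays and near the pool. LAMB1 had signals of 1807 in NGP, 2287 in IMR-32 and 1215 in the pool by its brightest probe set, with ratios of 0.33 and 1.02, and both of its probe sets were above the pool in both lines. LAMC1 had 4002 in NGP, 1722 in IMR-32 and 2613 in the pool, with ratios of -0.29 and -1.14. LAMA1, the alpha chain of the early embryo, was the only alpha chain above the pool in either line, at 0.53 in IMR-32 and -0.31 in NGP, where its 2 probe sets were at -1.70 and 1.09. None of these passed a cut-off.

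LAMB3 and LAMA5 were the laminins called lower. LAMB3, the beta chain of the laminin under stratified epithelia, had signals of 9.41 in NGP, 20.5 in IMR-32 and 203 in the pool, with ratios of -4.43 and -3.31 from dim signals in both lines. LAMA5, the main alpha chain of mature basement membranes, had 45.8 in NGP, 434 in IMR-32 and 1584 in the pool from 1 probe set. LAMA5 was called lower in NGP (-5.11, 34.6-fold lower) but not in IMR-32 (-1.87), and NGP was called lower than IMR-32 (-3.24). LAMB2, the beta chain of synaptic and kidney basement membranes, was at -2.29 in NGP and -2.01 in IMR-32, and LAMA4, of vessels, at -0.52 and -2.19, not called. The LAMA4 values come from probe sets dim on both arrays of the ratio. Its 1 probe set that was not dim in the pool gave -2.59 in NGP and -4.38 in IMR-32. Of its 5 probe sets, 4 were below the pool in NGP and 5 in IMR-32.

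Of the nidogens, which join laminin to collagen IV, NID2 was called higher in NGP than in IMR-32 and NID1 was not called. NID2 had signals of 467 in NGP, 61.8 in IMR-32 and 121 in the pool from its 1 probe set, so that NGP was high and IMR-32 dim. Its ratio was 1.95 in NGP (3.85-fold, called higher) and -0.97 in IMR-32. NID1 had 46.7 in NGP, 534 in IMR-32 and 650 in the pool by its brightest probe set, at -2.59 for NGP and -0.28 for IMR-32, neither called. The NID1 ratio of NGP over IMR-32 was -1.63, with probe sets from -3.52 to 0.76. AGRN, the gene of agrin, which clusters acetylcholine receptors at the nerve and muscle junction, was at -2.54 in NGP and -2.56 in IMR-32. HSPG2, the gene of perlecan, had 176 in NGP, 8.98 in IMR-32 and 421 in the pool with its brightest probe set. HSPG2 was called lower in IMR-32 (-3.40) and lay just short of the cut-off in NGP (-2.85, cut-off -2.88), but its 2 probe sets disagreed on the order of the lines (-3.18 and 4.29 for NGP over IMR-32). The bases before the NID2 start site are shown as those of the nidogen that was called higher in NGP, at chr14:52069060-52069309 of GRCh38.p14, minus strand, with GC boxes and CCAAT boxes in capitals.
NID2: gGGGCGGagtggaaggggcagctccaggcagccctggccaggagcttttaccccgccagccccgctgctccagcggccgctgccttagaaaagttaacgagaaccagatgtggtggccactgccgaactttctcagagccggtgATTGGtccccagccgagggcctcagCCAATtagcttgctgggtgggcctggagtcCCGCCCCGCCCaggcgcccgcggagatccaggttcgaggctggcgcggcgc

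Of the 6 adhesive and matricellular glycoproteins, THBS2 and TNC were called lower, in NGP alone, and none was called higher, against 7% of all genes in each direction. FN1, the gene of fibronectin, to which cells hold by integrins, had signals of 1810 in NGP, 524 in IMR-32 and 3583 in the pool, with ratios of -0.99 and -2.71 that did not pass. The 4 bright FN1 probe sets ran together (-0.99 to -1.42 in NGP and -2.71 to -2.89 in IMR-32), and the other 3 were dim in NGP and the pool. SPARC, which binds collagen and calcium, had 1560 in NGP, 2402 in IMR-32 and 3442 in the pool, at -0.71 and -0.21. THBS2, the gene of an inhibitor of vessel growth, had 12.0 in NGP, 86.2 in IMR-32 and 142 in the pool and was called lower in NGP (-3.57). TNC, the gene of tenascin-C, had 54.8 in NGP, 95.6 in IMR-32 and 580 in the pool by its brightest probe set and was called lower in NGP (-3.25, against -0.80 in IMR-32). The TNC values are those of probe sets dim on all 3 arrays, and the brightest one gave -3.40 and -2.60. THBS1, a target of p53 and TGF-beta, was at -2.25 in NGP and -1.46 in IMR-32, the values of a probe set dim on all 3 arrays. Of its 7 probe sets, 5 were below the pool in each line. The 3 that were not dim in the pool gave -3.85, -4.36 and -1.48 in NGP and -2.29, -4.43 and -4.19 in IMR-32.

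VCAN was the 1 matrix gene called higher in both lines. It encodes versican, a large chondroitin sulfate proteoglycan that binds hyaluronan and is made in the embryonic paths of neural crest cells. Its 5 probe sets gave 1993 to 10348 in NGP, 732 to 3566 in IMR-32 and 204 to 1275 in the pool. Every probe set was highest in NGP and lowest in the pool, and none was dim on any array. The ratio was 3.29 in NGP (9.79-fold), with probe sets from 2.83 to 3.73, and 1.85 in IMR-32 (3.60-fold), with probe sets from 1.47 to 2.36. NGP exceeded IMR-32 by 1.40 (2.64-fold), below the cut-off of that comparison. The VCAN sequence before the start site is chr5:83471494-83471743 of GRCh38.p14, plus strand, with a GC box in capitals, and is shown because VCAN was called higher in both lines.
VCAN: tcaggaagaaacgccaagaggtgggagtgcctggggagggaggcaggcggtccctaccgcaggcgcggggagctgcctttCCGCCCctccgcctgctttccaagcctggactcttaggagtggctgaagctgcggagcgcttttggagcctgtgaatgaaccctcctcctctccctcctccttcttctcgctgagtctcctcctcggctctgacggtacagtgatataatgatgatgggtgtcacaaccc

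The 4 motifs searched on both strands in these windows were the GC box GGGCGG, the E-box CACGTG, to which MYC and MAX proteins bind, the CCAAT box and the TATA box TATAAA. Neither an E-box nor a TATA box occurred in the 4 windows shown. Over 34943 windows of 250 bases before start sites in the tables, 42.5% held a GC box, 32% a CCAAT box, 10.8% a TATA box and 6.32% an E-box. Of the last 126 bases before a start site, 34.5% of windows held a GC box and 21.1% a CCAAT box. In NID2 a pair of adjoining GC boxes share a letter. Of the 45 measured genes, 32 have a window in these tables.

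The small leucine-rich proteoglycans, which bind and space collagen fibrils, were mostly dim. LUM, the gene of lumican, had signals of 363 in NGP, 9.11 in IMR-32 and 872 in the pool with its brightest probe set. LUM was called lower in IMR-32 (-3.45) and not in NGP (-0.16). Both values lie midway between those of 2 probe sets. The brightest gave -1.27 in NGP and -6.58 in IMR-32, and the other, dim on all arrays, gave 0.95 and -0.32. BGN, the gene of biglycan, reached the array median in NGP alone, with 174 in NGP, 67.2 in IMR-32 and 63.4 in the pool, and its ratio of 1.53 in NGP did not pass. DCN, the gene of decorin, had 113 in NGP, 103 in IMR-32 and 99.9 in the pool and was not called.

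Of the fibrillins and lysyl oxidases, FBN1 and LOX were called between the lines, in opposite directions, and FBN2 and LOXL2 were not (-0.04 and -0.18 for NGP over IMR-32). FBN1, the gene of the fibrillin of elastic microfibrils, had signals of 190 to 1340 over its 3 probe sets in NGP, 8.11 to 112 in IMR-32 and 98.0 to 577 in the pool. All 3 probe sets were highest in NGP and lowest in IMR-32. Over the pool its 0.95 in NGP and -2.37 in IMR-32 did not pass, while NGP over IMR-32 was called higher (3.59, 12.0-fold). FBN2, the fibrillin of the embryo, had 414 in NGP, 426 in IMR-32 and 924 in the pool. LOX, the gene of the lysyl oxidase that cross-links collagen and elastin, had 137 in NGP, 1131 in IMR-32 and 178 in the pool with its brightest probe set. LOX was called higher in IMR-32 (2.67, 6.36-fold) and stood at -0.38 in NGP, and all 3 probe sets were highest in IMR-32. LOXL2, a relative that also cross-links collagen IV, had 123 in NGP, 120 in IMR-32 and 1634 in the pool with its bright probe set, and its gene values of -2.42 and -2.13 did not pass, since the other 3 probe sets were dim on all arrays.

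**Figure D2:**
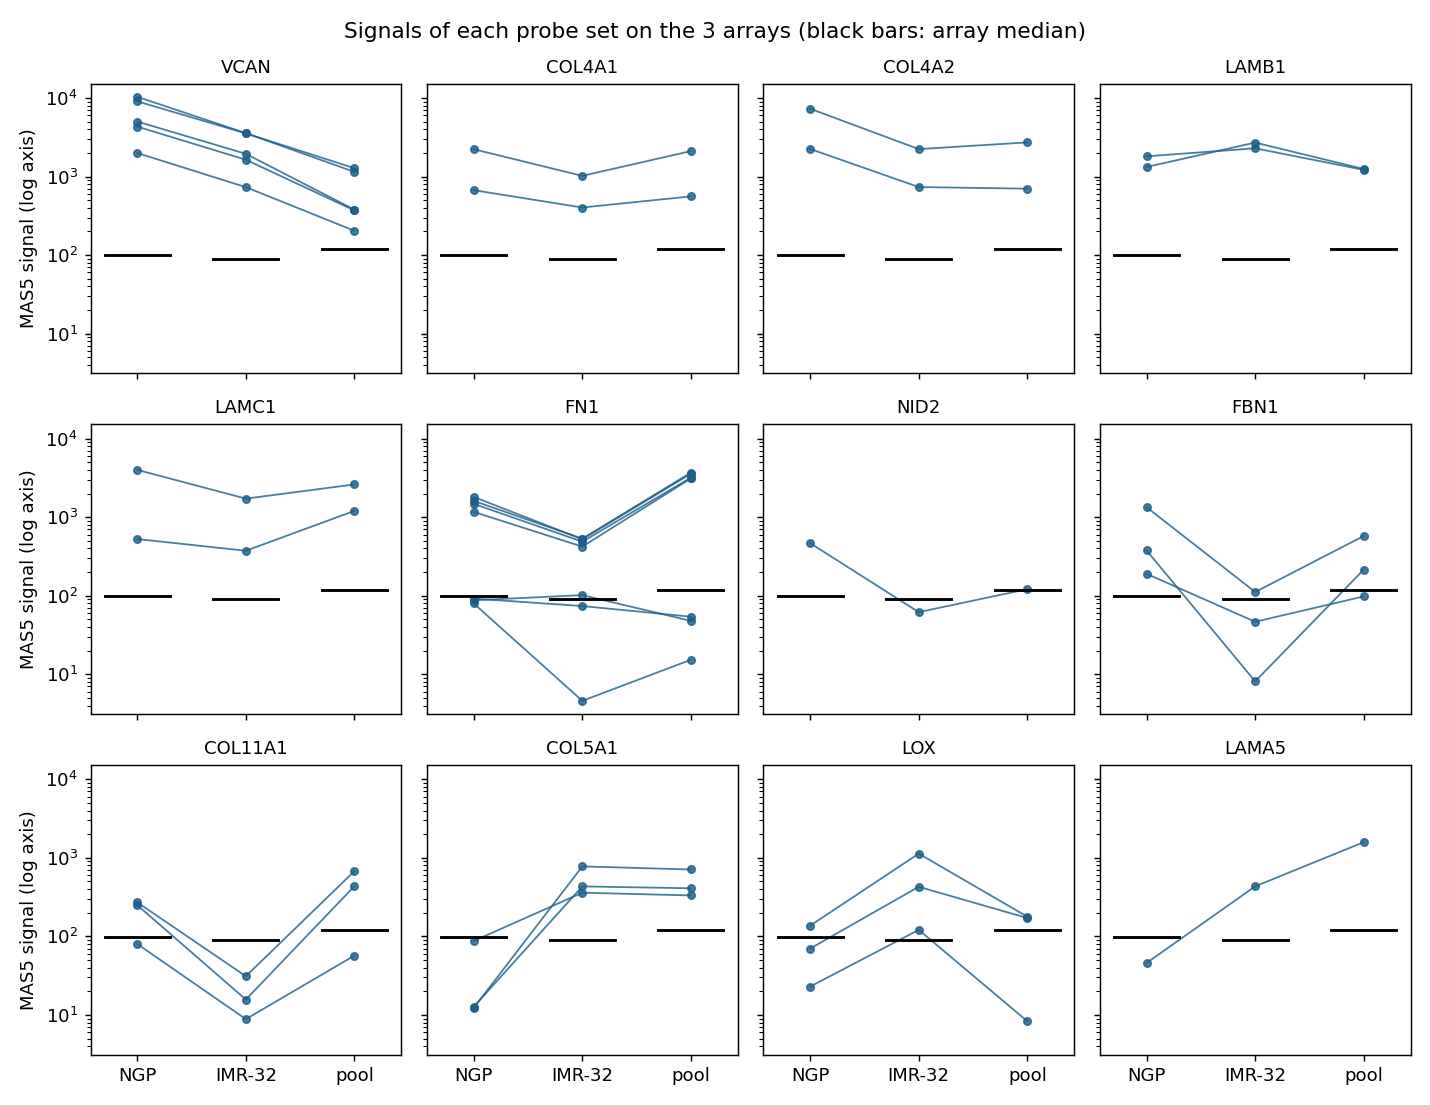
MAS5 signal on a log axis (y-axis) in NGP, IMR-32 and the reference pool (x-axis) for each probe set (joined points) of 12 matrix genes, with the median of each array as a black bar. All VCAN probe sets descend through NGP, IMR-32 and the pool, the 3 COL5A1 probe sets lie below the NGP median, and all LOX probe sets peak in IMR-32.

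Between the 2 lines, matrix genes were called in both directions. Of the 45 genes, 6 were called higher in NGP (13.3%), namely COL3A1, COL5A2, COL11A1, NID2, LUM and FBN1, against 7% of all genes. Called lower in NGP were 4 (8.89%), COL5A1, LAMA5, THBS2 and LOX, against 7% of all genes. The median of the matrix genes was 0.07, beside 0.02 over all genes, and 25 genes were above 0 and 20 below. COL5A1 had the lowest ratio (-5.09, 34.1-fold lower in NGP) and COL5A2 the highest (4.51, 22.8-fold higher in NGP). The COL5A2 signals were at or near the array median in NGP and dim in IMR-32, and with dim signals raised to the array median its ratio was 0.23. For COL11A1, NID2, LUM and FBN1 it was 1.47, 2.38, 1.07 and 2.07, for COL3A1 0.14, which is the ratio of the 2 array medians, and for COL5A1, LAMA5 and LOX -2.13, -2.13 and -2.11. THBS2 was dim in both lines, so that its call rests on dim signals alone.

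**Figure D3:**
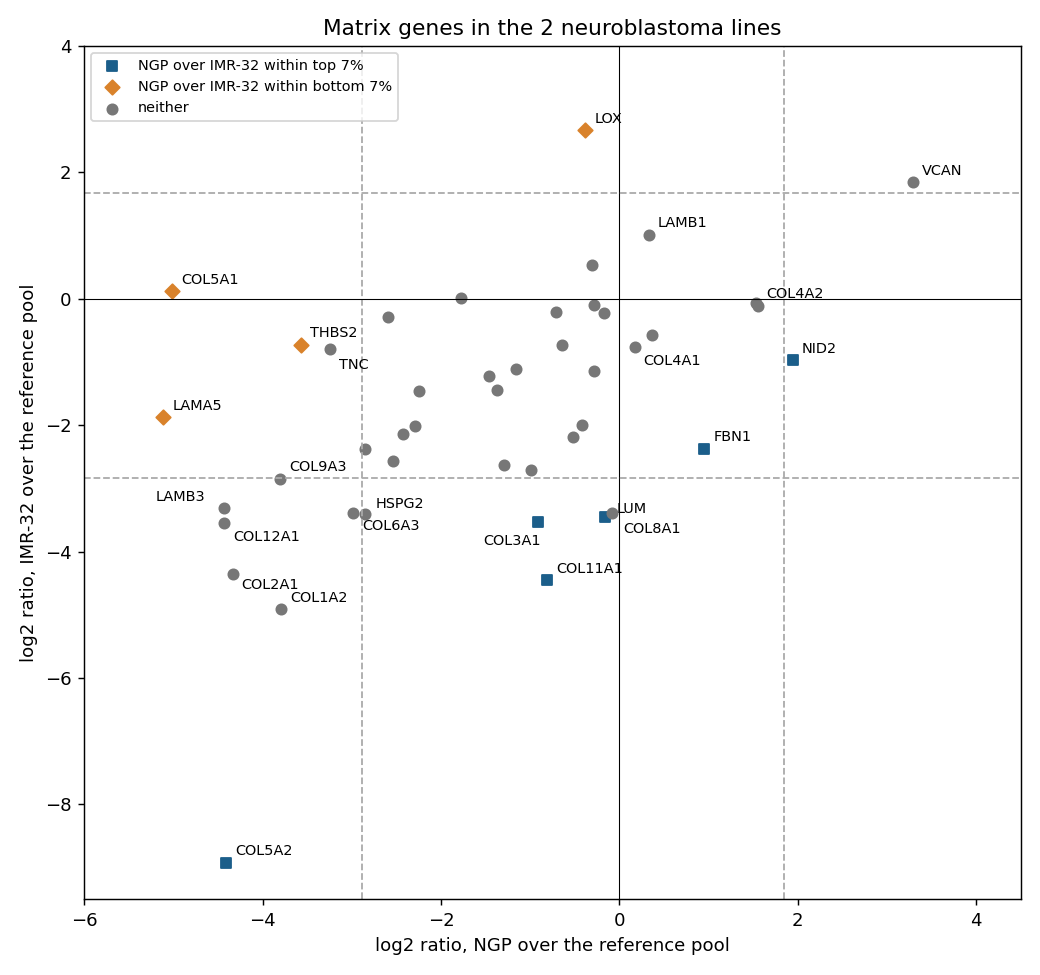
Log2 ratio over the reference pool in NGP (x-axis) and IMR-32 (y-axis) of the 45 matrix genes, marked by their call in NGP over IMR-32, with the cut-offs over the pool as dashed lines. VCAN lies beyond both upper cut-offs, 7 genes lie beyond both lower ones, COL5A1 lies far left beside 0 for IMR-32, and COL5A2 lies at the bottom.

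Other genes of the matrix, on lists that hold none of the 47, were divided between high and low. Of 119 measured, 14 were called higher and 14 lower in NGP, and 14 higher and 18 lower in IMR-32. By construction 7% of all genes are called in each direction. The medians were -0.75 in NGP and -0.85 in IMR-32, beside -0.22 and -0.23 over all genes. CCN2 and TGFBI, secreted proteins induced by TGF-beta, were among the lowest. CCN2 had signals of 25.7 in NGP, 3.07 in IMR-32 and 2118 in the pool, and TGFBI had 7.30 in NGP, 9.31 in IMR-32 and 1246 in the pool. Of 20 other collagen genes, 3 were called higher and 1 lower in NGP, and 1 higher and 2 lower in IMR-32. Of these 20, 12 were dim on both arrays of the NGP ratio and 14 on those of the IMR-32 ratio. COL6A6 was called higher in NGP (4.84), with 693 in NGP, 76.3 in IMR-32 and 6.94 in the pool. COL25A1 was called higher in both lines (4.86 and 3.02), but its brightest probe set was dim on all 3 arrays. Also on the high side, MFAP4, a microfibril protein, had 4664 in NGP, 4325 in IMR-32 and 362 in the pool. NCAN, the gene of neurocan, a proteoglycan of brain matrix related to versican, had 1497 in NGP, 747 in IMR-32 and 190 in the pool. MFAP2, which binds fibrillin, followed FBN1 in the order of the samples, with 2489 in NGP, 253 in IMR-32 and 558 in the pool.

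Enzymes that process, cross-link and cut collagen are set beside 7% of all genes called in each direction. Of 22 measured genes of collagen processing, 1 was called lower and 2 higher in NGP (ADAMTS14 lower, PCOLCE and ADAMTS2 higher), and 0 lower and 2 higher in IMR-32 (PCOLCE and LOXL3), counts near that share. PCOLCE, which speeds removal of the C-propeptide of fibrillar procollagens, had signals of 5293 in NGP, 2325 in IMR-32 and 559 in the pool. ADAMTS2, which removes the N-propeptide, had 1455 in NGP, 40.2 in IMR-32 and 17.2 in the pool. Of 19 metalloproteinases and inhibitors, 3 were called lower and 2 higher in NGP, and 5 lower and 4 higher in IMR-32. TIMP1 was lower in both lines, with 238 in NGP, 354 in IMR-32 and 5909 in the pool, and TIMP2 was called higher in IMR-32, with 3628 in NGP, 11507 in IMR-32 and 3247 in the pool. Among 10 receptors, DDR2, which binds fibrillar collagens, was called higher in both lines (2.38 in NGP and 2.23 in IMR-32), and SDC4 lower in both (-4.20 and -4.75).

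**Figure D4:**
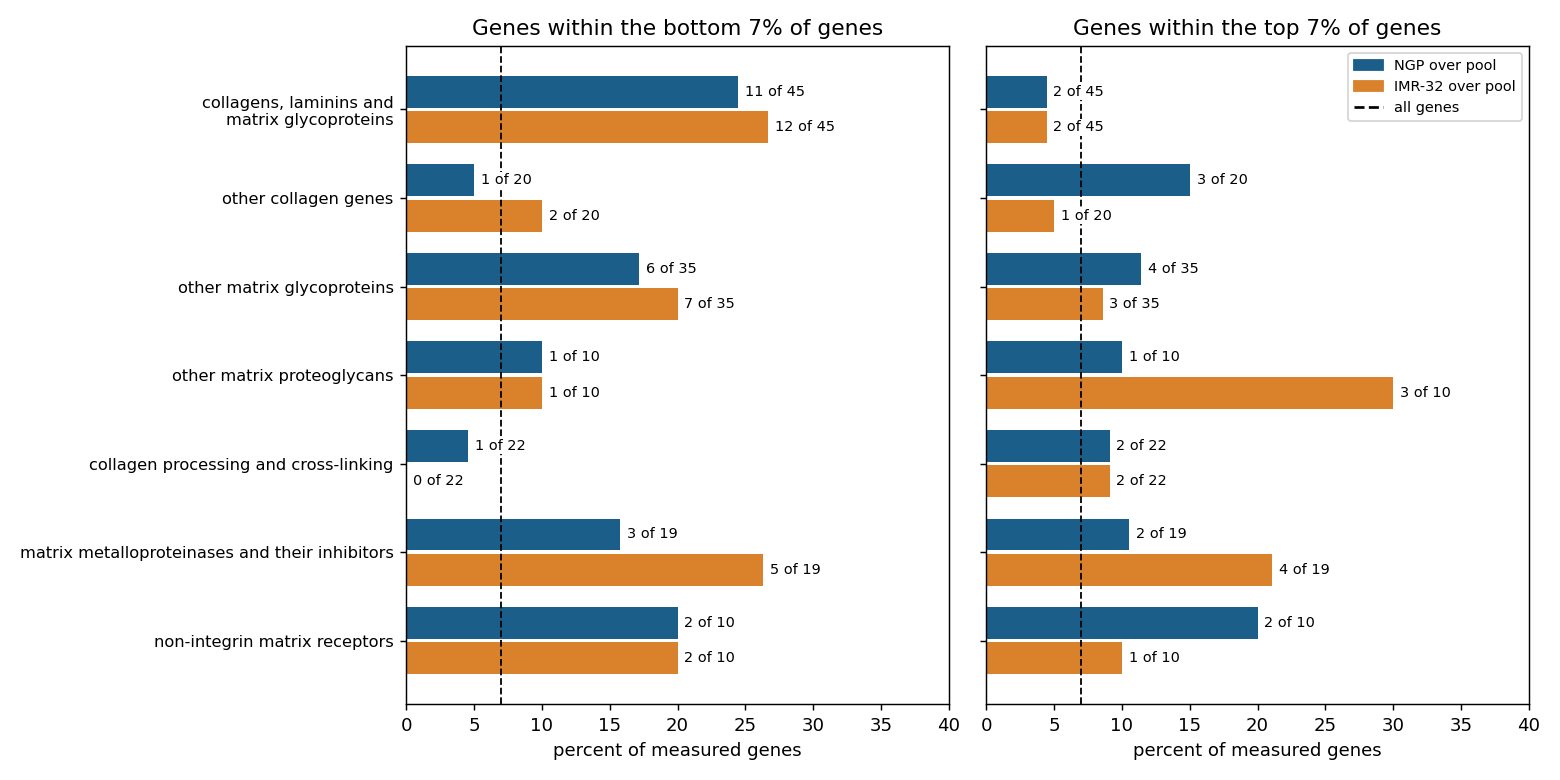
Percent of the measured genes (x-axis) of the matrix genes and of 6 other lists (rows) that lie within the bottom 7% (left panel) or top 7% (right panel) of all genes, in NGP over the pool (upper bars) and IMR-32 over the pool (lower bars), with counts beside the bars and a dashed line at the share of all genes. The matrix genes reach 24.4% and 26.7% on the left and 4.44% in both lines on the right.

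Markers of cell lineages moved with these comparisons, and their counts are set beside 7% of all genes called in each direction. Of 11 measured sympathetic neuroblastoma markers, 9 were called higher in NGP and 6 in IMR-32. All 11 were at or above the array median in both lines and also in the pool. Their summed signals were 105360 in NGP, 49583 in IMR-32 and 15090 in the pool. In IMR-32 4 of the 11 were below the pool, among them TH (-1.40), GATA2 (-1.34) and DBH (-0.33). Of 10 epithelial markers, 7 were called lower in each line, and their summed signals were 450 in NGP, 506 in IMR-32 and 68463 in the pool, with EPCAM, CDH1 and KRT19 dim in both lines. Of 14 mesenchymal markers, 5 were called lower and 1 higher in NGP, and 4 lower and 1 higher in IMR-32, with summed signals of 33204 in NGP, 24420 in IMR-32 and 67538 in the pool. S100A6 was at 38.9 in NGP, 2287 in IMR-32 and 27415 in the pool, while VIM was not called in either line. TWIST1 was called higher in both (2.81 and 2.44), with 11298 in NGP, 8763 in IMR-32 and 1614 in the pool. SNAI2 was near the pool, at 0.16 in NGP and -0.13 in IMR-32. Haematopoietic markers summed to 679 in NGP, 247 in IMR-32 and 441 in the pool. All these sums add signals of different probe sets, whose levels are not comparable, so that a few bright genes can carry a sum. Of the mesenchymal sums, VIM alone gave 19692 in NGP, and S100A6 alone gave 27415 in the pool. The part of these lineages in the ratios of the matrix genes was not tested.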

How the data were processed

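Gene expression was measured in NGP, IMR-32 and a pool of 16 cancer cell lines with 1 array each. The authors deposited linear signal intensities from MAS5, as run in Bioconductor's affy package (version not given in the sources used here). After trimming 2% of the 54675 probe sets at each end, every array averaged 500. Such scaling does not make the levels of different probe sets comparable, and no detection calls were used.

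The 62 control probe sets were left out. The 41091 probe sets that name 1 gene were used, of which 41037 were matched by gene ID to the reference gene table for current symbols. Log2 ratios over the pool and a call for the top and bottom 7% follow the methods of the study. Taking the median of each gene's probe sets, the call over 19775 genes and the ratio of NGP over IMR-32 were chosen here, and no pseudocount was added. No p-value was computed. Members called in any comparison were to be named with their signals on all arrays, and of other lists at most the 3 highest and 3 lowest genes whose higher signal was not dim. The members and lists were chosen with earlier results of these data known. The 10 alternatives were median-centred ratios, quantile normalization, log2(signal + 32), dim signals raised to the array median, dim probe sets left out, the brightest probe set (by mean log2 signal), the mean over probe sets, no _s_at and _x_at probe sets, and the top and bottom 5% or 10%. The steps were tested on simulated data with known changes. Python 3.11.15, numpy 2.4.6, pandas 2.3.3 and matplotlib 3.10.9 were used. The copy number arrays were not analysed here.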

Additional observations from a re-analysis of the deposited data

Results flagged for a closer look

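In 4 matrix genes the 2 lines lay on opposite sides of the pool and NGP over IMR-32 passed a cut-off. The log2 ratio of NGP over IMR-32 was -5.09 for COL5A1, 2.92 for NID2, 3.59 for FBN1 and -2.61 for LOX. The difference between the lines was not tested, since each has 1 array. COL5A1 in IMR-32 (0.12) and LOX in NGP (-0.38) were close to the pool, so that their opposite signs over the pool are small on that side. NID2 rests on 1 probe set, and the other genes on 3 each, all of which ran the same way between the lines.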

How the results depend on the processing

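More matrix genes were called lower than higher over the pool under each of the 10 alternatives in both lines, with 9 to 16 called lower in NGP and 7 to 19 in IMR-32. The lower count of IMR-32 was 19 with log2(signal + 32) and 7 without _s_at and _x_at probe sets, which leaves 35 genes. The higher count of NGP was 0 without these probe sets (VCAN has no others), 1 with the top 5% and 4 with the top 10%. That of IMR-32 was 0 without them, 1 with the brightest probe set and 1 with the top 5%. The NGP median was -0.73 with log2(signal + 32), -0.53 with dim signals raised to the array median and -0.79 without _s_at and _x_at probe sets, beside all-gene medians of -0.13, -0.27 and -0.19. The IMR-32 median was -1.20 with quantile-normalized arrays, -1.01 with log2(signal + 32), -0.66 with dim signals raised, -2.01 without dim probe sets and -0.72 without _s_at and _x_at probe sets, beside all-gene medians of -0.02, -0.14, -0.41, -0.12 and -0.20. For NGP over IMR-32 the higher count was 10 with log2(signal + 32), 11 with dim signals raised, 10 without dim probe sets, 10 with the brightest probe set and 11 with the top 10%. The median of that comparison was 0.66 without dim probe sets, 0.65 with the brightest probe set and -0.10 without _s_at and _x_at probe sets, a change of sign. COL3A1 turned to 0.68 in IMR-32 over the pool and to -1.75 in NGP over IMR-32 without _s_at and _x_at probe sets, and THBS2 to 0.14 in NGP over IMR-32 with dim signals raised, by construction. Called in their main direction under every alternative that could be run were VCAN, COL1A2, COL2A1, COL5A2 and LAMA5 in NGP, LOX, COL2A1, COL5A2, COL11A1 and COL6A3 in IMR-32, and COL11A1, NID2, COL5A1, LAMA5 and LOX between the lines. VCAN in IMR-32 lost its call if only the brightest probe set was used (1.64, under a threshold of 1.79) or if only 5% were called. NID2 in NGP lost its call in these settings too, and also if _s_at and _x_at probe sets were dropped (threshold 2.05). The causes were not tested. No paired analysis was possible because each group has 1 array. Without detection calls, dim signals limit the size of the lower ratios.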
